A study of Mus musculus with 12 samples.

Results

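The genes described here were 10 mouse genes of iron regulation and metal binding, Hamp, Hamp2, Tfr2, Tfrc, Slc40a1, Bmp6, Id1, Smad7, Mt1 and Mt2. They were chosen by name, and each was represented by 1 transcript cluster that carried its symbol alone, so 10 of the 35556 clusters on the arrays were followed. RNA of 12 samples was measured on Affymetrix arrays, 2 arrays in each of 6 groups named by the sample titles. The study compared KK-Ay mice (KK.Cg-Ay/J), which carry the dominant A-y allele of agouti on the diabetes-prone KK background, with KK mice. Groups 6Y, 16Y and 42Y are titled Y, and groups 1, 6K and 42WKK are not. The design record places the Y arrays with type 2 diabetes and the other 6 with the controls, whereas the sample records list 6K as diabetic and 42Y as control. The groups were therefore kept as the titles give them. The methods give an age of 42 weeks for the mice used, no source used here gives an age or sex for each array, and the strain of group 1 is not stated. The diet was laboratory chow and no treatment was recorded. No source says whether the arrays of a group came from separate mice, so the p-values measure the spread between arrays, which may be technical.

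Hepcidin, the product of Hamp, is a liver peptide hormone that binds the iron exporter ferroportin and causes its degradation, which lowers iron entry into plasma. In hepatocytes its transcription is driven by bone morphogenetic proteins acting through SMAD factors, by a sensing complex that includes transferrin receptor 2, and, in inflammation, by interleukin-6 acting through STAT3. The metallothioneins are small cysteine-rich proteins that bind zinc and copper, and their liver genes respond to metals, glucocorticoids and inflammatory signals.

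The sample records name blood leukocytes as the source and the methods name liver. The median of 9 hepatocyte markers, among them the albumin gene, was 12.94 to 13.25 on the log2 signal scale across the 12 arrays, while the median of 6 T cell markers was 4.08 to 4.35. That of 8 neutrophil markers was 3.84 to 4.50. The array medians over all clusters were 4.74 to 4.88. The agouti gene, which the A-y allele places under a broadly active promoter, was at 6.78 to 7.06 on the Y arrays and at 5.20 to 5.51 on the other 6. Within groups the arrays correlated across all clusters at r = 0.983 (42Y) to r = 0.991 (42WKK). In tissue RNA, fewer cells of a type and less RNA per cell cannot be told apart.

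The start regions of the metallothionein genes are shown because Mt1 and Mt2 lie side by side and moved together on these arrays. The 250 bases before each start are given 5′ to 3′ from RefSeq (GRCm38.p6), at chr8:94178839-94179088 on the plus strand for Mt1 and at chr8:94172368-94172617 on the plus strand for Mt2. Capitals mark matches, on either strand, to the cores TGCACNC and TGCGCNC of the metal response element, the site of the zinc-sensing factor MTF1.
Mt1: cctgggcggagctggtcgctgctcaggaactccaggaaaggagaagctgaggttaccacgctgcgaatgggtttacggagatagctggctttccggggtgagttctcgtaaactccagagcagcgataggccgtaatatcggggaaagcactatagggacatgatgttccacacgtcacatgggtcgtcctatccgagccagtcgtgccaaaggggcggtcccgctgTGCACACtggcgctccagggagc
Mt2: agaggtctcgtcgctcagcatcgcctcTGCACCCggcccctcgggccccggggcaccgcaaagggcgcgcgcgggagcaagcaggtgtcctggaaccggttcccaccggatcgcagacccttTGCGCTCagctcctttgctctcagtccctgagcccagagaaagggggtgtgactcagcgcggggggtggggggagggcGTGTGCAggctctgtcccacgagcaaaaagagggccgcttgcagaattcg
Within these windows Mt1 had 1 match and Mt2 had 3. Bases after each annotated start and farther upstream were not searched, so the counts are not those of the whole promoters. At least 1 match was present in 21.4% of 32851 promoter windows of the same length, so a match by itself is common, and it shows no binding. RefSeq windows were matched for 7 of the 10 genes. The Tfrc windows held TGCGCNC, the Bmp6 window held TGCACNC, and the Tfr2 window held none of these letters.

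None of the 10 genes passed the test in any of 7 comparisons. The test was limma on all clusters with Benjamini-Hochberg adjustment, called at an adjusted p under 0.05. Of all clusters, 1.85% were called for 42Y against 42WKK, 1.78% for 16Y against 6Y, 1.01% for 42WKK against 6K and 0.399% for 42Y against 16Y. The shares were 0.208% for the 6 Y arrays against the other 6, 0.143% for the difference between the 42 and 6 contrasts, and 0.00281% for 6Y against 6K. At an unadjusted p under 0.05, 3 of the 10 genes (Tfr2, Slc40a1 and Id1) were counted for 42Y against 42WKK, where 17.3% of all clusters were. The count was 4 of 10 (Tfr2, Id1, Mt1 and Mt2) for the Y arrays against the others, where 12.3% of all clusters were. It was 2 of 10 for 42WKK against 6K (15% of all clusters), 2 for the difference of contrasts (13.2%), 1 for 6Y against 6K (5.28%) and 0 for both 16Y against 6Y and 42Y against 16Y, where the limma test counted 18.1% and 13.9% of all clusters. These shares include many clusters of low signal. A fit of only the 11788 clusters with a mean log2 signal of at least 6 kept 8 of the 10 genes. Of those clusters, 3797 had an unadjusted limma p under 0.05 for 42Y against 42WKK, and 2578 for the Y arrays against the others. For 42Y against 42WKK the median log2 difference was 0.32 over the 10 genes and 0.02 over all clusters. An exact permutation test over the 6 Y and 6 other arrays called 0 clusters after the same adjustment (2257 at an unadjusted p under 0.05), with the lowest adjusted p among the 10 genes at 0.672 (Mt2).

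**Figure D1:**
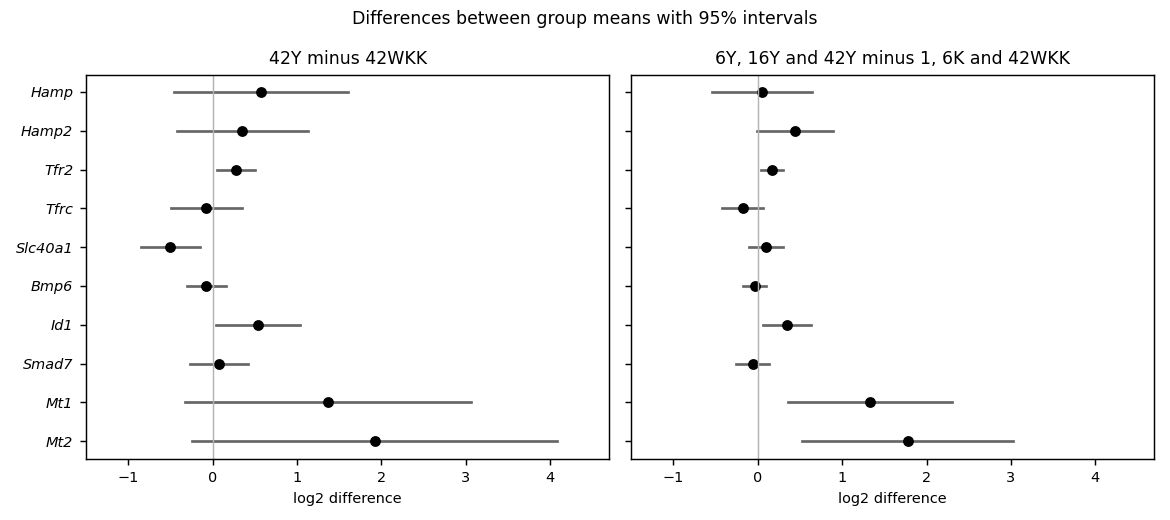
Log2 difference (x axis) of each of the 10 genes (y axis) for 42Y minus 42WKK (left) and for the 6 Y arrays minus the other 6 (right), as dots with the 95% interval of the limma fit. The intervals of Mt1 and Mt2 are the widest, -0.32 to 3.06 and -0.24 to 4.09 on the left, and those of Bmp6 and Tfr2 are the narrowest, -0.31 to 0.16 and 0.05 to 0.51.

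Hamp encodes hepcidin itself. Its log2 signal was 12.82 and 11.47 in group 1, 11.81 and 12.02 in 6K, 10.91 and 12.08 in 6Y, 12.15 and 12.12 in 16Y, 12.05 and 12.06 in 42WKK, and 12.44 and 12.82 in 42Y. Both 42Y arrays lay above both 42WKK arrays, but array 1-3 was as high as 42Y-2, and the 6Y arrays were 1.17 apart. The log2 difference of 42Y over 42WKK was 0.57 (SE 0.45, 95% interval -0.45 to 1.60, limma adjusted p = 0.572). Across Y and other arrays the difference was 0.05 (interval -0.55 to 0.64, limma adjusted p = 0.962). None of the gaps between neighbouring group means exceeded the within-group SD of 0.53. The order of neighbours, from 42Y at 12.63 down to 6Y at 11.50, was therefore not resolved. The difference between these ends, 42Y and 6Y, was not tested.

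Hamp2, a neighbouring hepcidin gene whose product is not established as the iron hormone, ordered the arrays otherwise than Hamp. It was at 7.08 and 6.22 in group 1, 7.79 and 7.05 in 6K, 7.78 and 7.73 in 6Y, 7.51 and 7.07 in 16Y, 6.75 and 7.18 in 42WKK, and 7.07 and 7.56 in 42Y. Both 6Y arrays lay above all arrays of group 1, 16Y, 42WKK and 42Y, and the lowest Hamp array, 6Y-1, was among the highest for Hamp2. Over the 12 arrays the correlation of Hamp with Hamp2 was r = -0.03 and rho = 0.01 (permutation p = 0.937 and 0.991). It was 0.46 within groups, and 0.46 without 6Y-1 and 1-3. The difference of 42Y over 42WKK was 0.35 (SE 0.34, interval -0.43 to 1.13, limma adjusted p = 0.66), and it ranged from 0.11 without 42Y-2 to 0.59 without 42Y-1. The difference of the Y arrays over the others was 0.44 (SE 0.20, interval -0.01 to 0.89, limma adjusted p = 0.414). Because the sequences of the genes are close, RNA of one may bind probes of the other, which was not tested.

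Tfr2, the transferrin receptor that reports plasma iron saturation to hepcidin in hepatocytes, had the smallest within-group SD of the 10 genes (0.07, with 94.6% of all clusters more variable). It was at 9.68 and 9.83 in group 1, 10.03 and 10.04 in 6K, 9.96 and 10.05 in 6Y, 9.94 and 10.08 in 16Y, 9.73 and 9.67 in 42WKK, and 9.96 and 10.01 in 42Y. The arrays fell into a higher set of 6K, 6Y, 16Y and 42Y and a lower set of group 1 and 42WKK, and the gap of 0.23 between their nearest group means was above the SD. The difference of 42Y over 42WKK was 0.28 (SE 0.10, interval 0.05 to 0.51, limma adjusted p = 0.204). That of 42WKK over 6K was -0.33 (SE 0.10, limma adjusted p = 0.167), and that of the Y arrays over the others was 0.17 (SE 0.06, limma adjusted p = 0.289). Group 6K stood with the Y arrays, so the level did not separate the Y arrays from all others.

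The level of Tfr2 moved with the median of markers of Kupffer cells, the resident macrophages of liver. The median of 11 such markers was 6.10 and 6.81 in group 1, 7.24 and 7.27 in 6K, 7.20 and 7.87 in 6Y, 7.01 and 7.38 in 16Y, 6.72 and 6.78 in 42WKK, and 7.16 and 6.96 in 42Y. Its correlation with Tfr2 was r = 0.83 and rho = 0.93 over 12 arrays (permutation p = 3e-05 and 5e-05, adjusted p = 0.0014 and 0.00262 over 105 relations). It was 0.81 within groups, and 0.89 without arrays 1-3 and 6Y-2. None of the Kupffer cell markers was called for 42Y against 42WKK in limma (1 of 11 at an unadjusted p under 0.05). For the Y arrays against the others none was called either, but all 11 were above 0. Their median log2 difference there was 0.36, against 0.001 over all clusters. Of the 11, 7 had an unadjusted limma p under 0.05, as had 12.3% of all clusters. In a fit of only clusters with a mean log2 signal of at least 6, 2578 of 11788 had. The marker median was taken over signals not centred by gene, so the gene that gives it differed between arrays. What the relation reflects was not tested.

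Tfrc, the receptor that brings transferrin-bound iron into most cells and whose messenger RNA is stabilised when cells are short of iron, had a narrow range. It was at 7.08 and 7.14 in group 1, 7.09 and 6.81 in 6K, 6.72 and 7.26 in 6Y, 6.73 and 6.51 in 16Y, 7.04 and 6.87 in 42WKK, and 6.96 and 6.81 in 42Y. Group 16Y had the lowest mean, 6.62, and its gap of 0.27 to 42Y was the only one between neighbours above the SD of 0.20. The difference of 42Y over 42WKK was -0.07 (interval -0.49 to 0.35, limma adjusted p = 0.891), and that of 16Y over 6Y was -0.37 (interval -0.79 to 0.05, limma adjusted p = 0.341).

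Slc40a1 encodes ferroportin, the iron exporter that hepcidin removes from the cell surface, and in liver it is prominent in Kupffer cells. It was at 8.73 and 8.59 in group 1, 9.34 and 9.46 in 6K, 9.67 and 9.48 in 6Y, 9.41 and 9.18 in 16Y, 9.51 and 9.41 in 42WKK, and 9.15 and 8.76 in 42Y. Both 42Y arrays lay below the arrays of 6K, 6Y, 16Y and 42WKK, and group 1 was lower on average than 42Y, with array 42Y-2 near it. The difference of 42Y over 42WKK was -0.50 (SE 0.15, interval -0.85 to -0.15), a ratio of 0.708, at limma adjusted p = 0.147, the lowest of the 10 genes in that comparison. The difference was -0.30 without 42Y-2 and -0.70 without 42Y-1. At 6 the Y minus K difference was 0.17, and the change between the 42 and 6 contrasts was -0.67 (SE 0.22, interval -1.16 to -0.18, limma adjusted p = 0.248). When only the 11788 clusters with a mean log2 signal of at least 6 were tested, Slc40a1 passed for 42Y against 42WKK (limma adjusted p = 0.0453), with 14.6% of those clusters called.

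The relation of Slc40a1 to the Kupffer cell markers did not pass adjustment (r = 0.51, rho = 0.31, permutation adjusted p = 0.478 and 0.648). With the median of 10 sinusoidal endothelial cell markers it had r = 0.74 and rho = 0.73 (permutation adjusted p = 0.0906 and 0.1), which fell to 0.43 without arrays 1-5 and 1-3 and was 0.18 within groups. That marker median was 7.04 and 6.85 in group 1, 7.88 and 7.54 in 42Y, and 7.16 to 8.42 on the other 8 arrays. The relation therefore rested on group 1. Of the 10 endothelial markers, 5 were called lower in 16Y than in 6Y in limma, among them Lyve1 and Kdr. Of all clusters, 1.78% were called in either direction. All 10 markers were below 0 there, with a median log2 difference of -0.95. Slc40a1 had the same sign but was not called (log2 difference -0.28, limma adjusted p = 0.383).

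Bmp6, the ligand through which liver iron raises hepcidin, comes mainly from sinusoidal endothelial cells. It ranged from 5.91 in array 1-5 to 6.27 in array 42WKKB, with a median of 6.10 over the 12 arrays. Its highest group mean was 6.22 in 42WKK (6.18 and 6.27), its lowest 6.00 in 16Y (5.97 and 6.04), and the 42Y arrays were at 6.14 and 6.16. The difference of 42Y over 42WKK was -0.07 (SE 0.10, interval -0.31 to 0.16, limma adjusted p = 0.775), and it ranged from -0.12 to -0.02 with 1 array left out.

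Id1, a target gene of BMP-SMAD signalling often read as its marker in liver, had a low signal on these arrays. It was at 5.45 and 5.38 in group 1, 5.64 and 5.51 in 6K, 5.45 and 5.65 in 6Y, 6.20 and 5.68 in 16Y, 5.42 and 5.56 in 42WKK, and 5.74 and 6.32 in 42Y. Of the Y arrays, 5 lay above all other arrays and 6Y-1 did not, with 16Y-1 and 42Y-2 well above the rest. The difference of 42Y over 42WKK was 0.54 (SE 0.22, interval 0.04 to 1.04, limma adjusted p = 0.254), and it was 0.25 without 42Y-2 and 0.83 without 42Y-1. That of the Y arrays over the others was 0.35 (SE 0.13, interval 0.06 to 0.63, limma adjusted p = 0.317), with an exact permutation p of 0.0216 before and 0.727 after adjustment.

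Smad7, an inhibitory SMAD that BMP signalling induces and that damps hepcidin, was highest in 6K. It was at 5.49 and 5.22 in group 1, 5.74 and 5.85 in 6K, 5.27 and 5.41 in 6Y, 5.60 and 5.50 in 16Y, 5.46 and 5.14 in 42WKK, and 5.26 and 5.50 in 42Y. Both 6K arrays were above all 10 others. The difference of 6Y over 6K was -0.46 (SE 0.15, limma adjusted p = 0.883), and that of 42WKK over 6K was -0.49 (SE 0.15, limma adjusted p = 0.173). These comparisons share the 6K arrays. For 42Y over 42WKK it was 0.08 (interval -0.27 to 0.42, limma adjusted p = 0.845), and the change between the 42 and 6 contrasts was 0.53 (SE 0.21, limma adjusted p = 0.338).

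Among the BMP targets, Id1 and Smad7 had r = 0.22 and rho = 0.33 (permutation adjusted p = 0.84 and 0.648). Hamp had r = 0.48 and rho = 0.64 with Id1 (permutation adjusted p = 0.486 and 0.204). With Bmp6 it had r = 0.51 and rho = 0.37 (permutation adjusted p = 0.478 and 0.602), and 0.83 within groups. None of these passed over 105 relations.

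**Figure D2:**
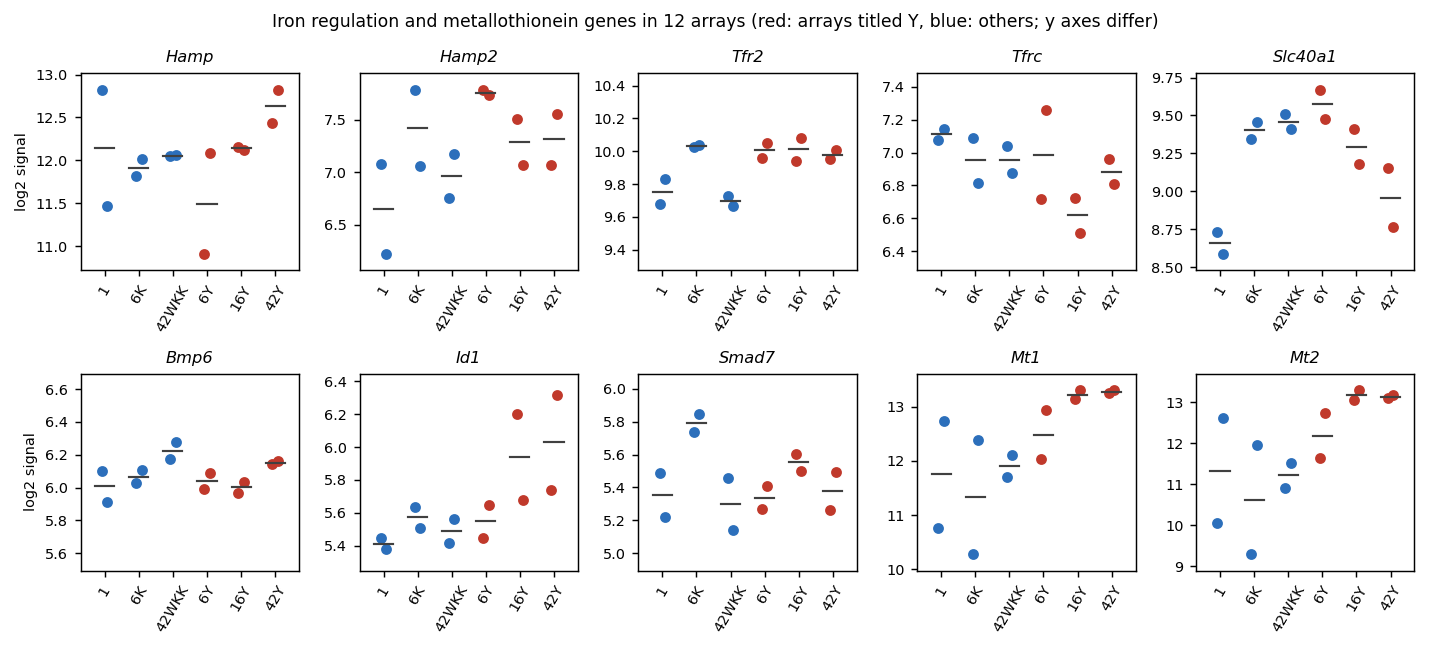
Log2 signal (y axis, a separate scale in each panel) of the 10 genes in the 6 title groups (x axis), with a dot for each of the 2 arrays of a group and a line at their mean. Mt1 and Mt2 spread by 3.02 and 4.01 over the 12 arrays with the 16Y and 42Y arrays at the top, Tfr2 spans 0.41, and Slc40a1 is low in group 1 and 42Y.

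The metallothionein genes had the widest spread of the 10. Mt1 was at 10.77 and 12.74 in group 1, 10.28 and 12.38 in 6K, 12.03 and 12.95 in 6Y, 13.14 and 13.31 in 16Y, 11.69 and 12.11 in 42WKK, and 13.25 and 13.30 in 42Y. Mt2 was at 10.05 and 12.62 in group 1, 9.30 and 11.96 in 6K, 11.64 and 12.74 in 6Y, 13.06 and 13.31 in 16Y, 10.91 and 11.53 in 42WKK, and 13.10 and 13.19 in 42Y. For both genes 5 of the 6 Y arrays were above all other arrays and 6Y-1 was not. The 16Y and 42Y arrays were high and close together, whereas the arrays of group 1 and of 6K were far apart, by 1.97 and 2.10 for Mt1 and by 2.57 and 2.66 for Mt2. The within-group SD was 1.13 for Mt2, exceeded by 45 of the 35556 clusters (0.127%), and 0.88 for Mt1, exceeded by 200 (0.562%), against a median of 0.16 over all clusters.

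For 42Y over 42WKK the log2 difference was 1.37 for Mt1, a ratio of 2.58 (SE 0.74, interval -0.32 to 3.06, limma adjusted p = 0.393). It was 1.92 for Mt2, a ratio of 3.79 (SE 0.95, interval -0.24 to 4.09, limma adjusted p = 0.344). Both intervals, which use the spread of all 6 groups, included 0. Restricting the fit to the 4 arrays of these groups called 0 clusters, although 4854 of the 35556 had an unadjusted limma p under 0.05.

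Over all arrays Mt1 was 12.99 ± 0.49 in the Y arrays and 11.66 ± 0.96 in the others (SD, n = 6 each). The log2 difference was 1.33 (SE 0.43, interval 0.35 to 2.30, limma adjusted p = 0.268). Mt2 was 12.84 ± 0.62 in the Y arrays and 11.06 ± 1.23 in the others (SD, n = 6 each). The log2 difference was 1.78 (SE 0.55, interval 0.53 to 3.03, limma adjusted p = 0.251). The two-sided exact permutation p was 0.0108 for Mt1 and 0.00866 for Mt2, where 6 arrays against 6 allow no p below 0.00216, and the adjusted values were 0.673 and 0.672. The intervals of both genes lay above 0, but neither passed the test over all clusters. At 6 the Y over K difference was 1.15 for Mt1 and 1.56 for Mt2 (limma adjusted p = 0.921 for both). These rested on the 6K arrays, since the values were 0.10 and 0.23 without 6K-1 and 2.20 and 2.89 without 6K-2. The change between the 42 and 6 contrasts was 0.21 for Mt1 (interval -2.18 to 2.60) and 0.36 for Mt2 (interval -2.70 to 3.42), so the fit left a wide range of differences between these contrasts.

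Mt1 and Mt2 followed each other array by array, with r = 0.997 and rho = 0.993 over 12 arrays (permutation p = 1e-05 for both, the smallest that 100000 permutations can give, adjusted p = 0.00105). It was 0.999 within groups, and 0.994 without 6K-1 and 1-3. The sequences of the genes are similar, and binding of the RNA of one to probes of the other was not tested. Both also followed the median of 11 glucocorticoid-responsive genes, a list that includes Fkbp5, a cochaperone gene induced by the glucocorticoid receptor. That median was 8.56 and 9.30 in group 1, 7.82 and 8.78 in 6K, 9.10 and 8.96 in 6Y, 9.37 and 9.70 in 16Y, 8.55 and 9.02 in 42WKK, and 9.32 and 9.14 in 42Y. It was taken over log2 signals that were not centred by gene. On each array it is therefore the value of a single gene, such as Lpin1 on 1-3, Tsc22d3 on 6K-1 and Fkbp5 on 16Y-1. A relation with this median need not hold for every gene of the list. Arrays 6K-1 and 1-3 were low for the metallothioneins and for the list median, and the partner arrays 6K-2 and 1-5 were higher for both. The arrays of 16Y and of 42WKK also ran the same way. In 6Y and 42Y they ran the opposite way, with the list median lower on 6Y-2 and 42Y-2 and both metallothioneins higher. Mt1 was at 12.03 and 12.95 in 6Y and at 13.25 and 13.30 in 42Y. For Mt1 the correlation with the list median was r = 0.89 and rho = 0.853 (permutation adjusted p = 0.00158 and 0.0158), 0.86 within groups and 0.80 without 6K-1 and 16Y-2. For Mt2 it was r = 0.91 and rho = 0.86 (permutation adjusted p = 0.0014 and 0.0158), 0.87 within groups and 0.84 without the same arrays. Besides the Kupffer cell relation of Tfr2, no other of the 105 relations passed.

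**Figure D3:**
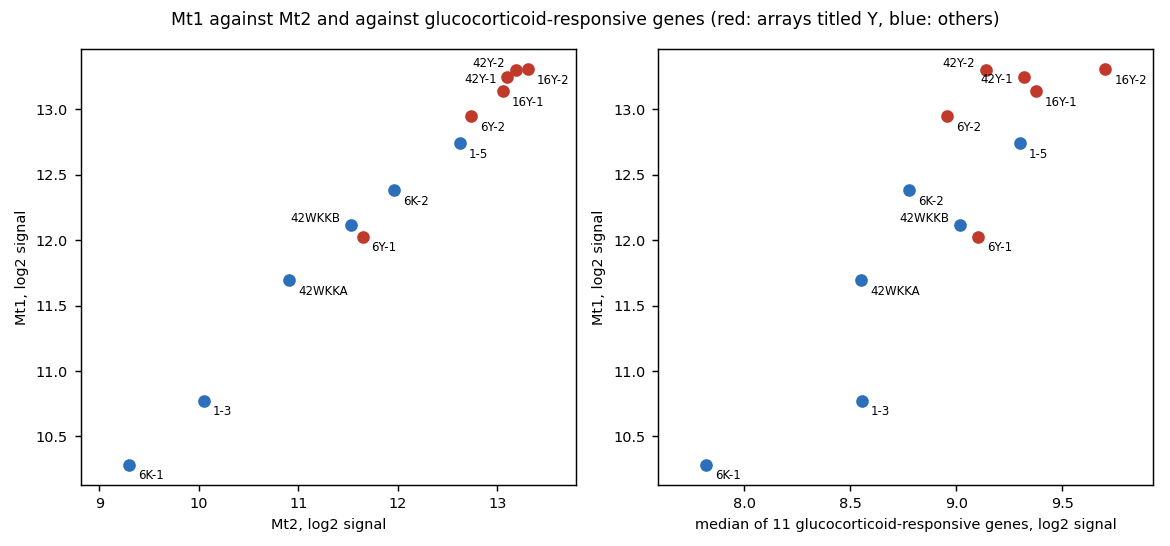
Log2 signal of Mt1 (y axis) against that of Mt2 (left x axis) and against the median log2 signal of 11 glucocorticoid-responsive genes (right x axis), 1 dot for each of the 12 arrays. The arrays run from 6K-1 at the lower left to the 16Y and 42Y arrays at the upper right in both panels (r = 0.997 and r = 0.89).

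The acute phase list of 22 genes holds acute phase genes and members of the interleukin-6 and STAT3 pathway itself, such as Il6 and Stat3. With its median the correlation was r = 0.73 for Mt1 and 0.72 for Mt2 (permutation adjusted p = 0.0906 for both). It was r = 0.78 and rho = 0.79 for Tfr2 (permutation adjusted p = 0.0705 and 0.0584), and r = 0.70 and rho = 0.80 for Id1 (permutation adjusted p = 0.0705 and 0.0565). For Hamp it was r = 0.31 (permutation adjusted p = 0.692). None of the 11 glucocorticoid-responsive genes was called by limma for 42Y against 42WKK (4 at an unadjusted p under 0.05), where the median log2 difference of the list was 0.40 against 0.02 over all clusters. The list was mixed there, with 6 genes above 0 and 5 below, from 2.01 for Fkbp5 to -0.81 for Tsc22d3, another glucocorticoid-induced gene (limma adjusted p = 0.0751 and 0.298). Clock genes also differed between these groups. The median of genes high with Dbp minus that of genes high with Arntl was -0.38 and 0.12 in 42Y and -1.71 and -1.72 in 42WKK. It ranged from -2.15 to -0.88 on the other 8 arrays. Its correlation with the members did not pass, with r = 0.37 for Mt1 and r = -0.66 for Slc40a1 (permutation adjusted p = 0.554 and 0.177). The part of clock phase in the 42Y values was not tested further.

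By the similarity of the 12-array pattern among 7666 genes with a mean log2 signal of at least 6, the genes most like Mt1 were Mt2 (r = 0.997), Pptc7 (0.94), Gne (0.92), Fkbp5 (0.91) and Il6ra (0.89). Fkbp5 was at 6.15 and 7.56 in 6K and at 9.32 and 9.33 in 42Y. The genes most like Hamp were Hivep1 (0.83), Ncoa6 (0.82), Tfcp2l1 (0.82), Ube2f (0.82) and Xdh (0.81). Those most like Id1 were Gch1 (0.90), Rp9 (0.88), Cldnd1 (0.86), Heca (0.86) and Mea1 (0.84). These values are descriptions of the highest among many genes.

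Beyond the 10 genes, 112 measured genes in 6 lists of the same pathways were read in the same fit. For 42Y against 42WKK, 8 were higher and 2 lower (8.93%, where 1.85% of all clusters were called). In separate fits the share was 4.59% of clusters with 1 symbol and 14.6% of clusters with a mean log2 signal of at least 6. The share of the lists lay between these. The lists were chosen with earlier results of these data known. The list of iron uptake, storage and export had 1 of 19 called, hepcidin control 1 of 24, heme synthesis and breakdown 0 of 18 (3 at an unadjusted limma p under 0.05), zinc and copper handling 4 of 18, acute phase genes 4 of 22 and glucocorticoid-responsive genes 0 of 11. The median log2 difference was 0.56 over the acute phase list, -0.06 over the iron list and 0.00 over the hepcidin control list, against 0.02 over all clusters.

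Smad1, a signalling SMAD that carries the BMP signal to the hepcidin gene, had the lowest adjusted p of the 112 genes in this comparison. It was at 7.38 and 7.42 in 42Y, at 6.15 and 6.18 in 42WKK, and at 6.31 to 6.61 on the other 8 arrays. Smad1 was higher in 42Y than in 42WKK by 1.24 (SE 0.10, limma adjusted p = 0.00227) and higher than in 16Y by 1.09 (limma adjusted p = 0.0116). The first call held with any single array left out (adjusted p = 0.00454 to 0.0345), and the second was lost without 16Y-1 or 16Y-2 (adjusted p up to 0.104). The change between the 42 and 6 contrasts was 1.24 (SE 0.15, limma adjusted p = 0.0291), a call lost when any 1 of 9 arrays was left out (adjusted p up to 0.126). Smad9, a related signalling SMAD, was lower in 16Y than in 6Y by 0.88 on the log2 scale (limma adjusted p = 0.0383), a call lost without any 1 of 8 arrays.

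Slc39a14, a transporter that takes zinc and non-transferrin-bound iron into hepatocytes, was the called gene of the iron list. It was at 10.32 and 10.02 in 42Y, 8.68 and 8.65 in 42WKK, 9.56 and 9.81 in 16Y, 9.26 and 9.77 in 6Y, 8.94 and 9.51 in 6K, and 9.11 and 9.04 in group 1. Both 42Y arrays were above and both 42WKK arrays below all the others. The log2 difference was 1.51 (SE 0.22, limma adjusted p = 0.0213), and the call was lost without 42WKKA, 42WKKB or 42Y-1 (adjusted p up to 0.134).

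In the zinc and copper list, Slc30a5, a zinc transporter of the secretory pathway, was at 8.99 on the lower of the 42Y arrays, at 8.08 on both 42WKK arrays, and at 7.43 to 8.08 on all arrays outside 42Y. It rose by 0.92 (SE 0.17, limma adjusted p = 0.0378), and Mt4, a further metallothionein gene with a signal near the array medians, by 0.79 (limma adjusted p = 0.0436). Slc30a10, a manganese exporter, fell by 0.62 on the log2 scale and Slc39a4, a zinc importer, fell by 0.62 (limma adjusted p = 0.0386 and 0.0429). These 4 calls were fragile, since those of Mt4 and Slc30a10 were lost whichever of the 12 arrays was left out and those of Slc30a5 and Slc39a4 in 10 of 12 such fits.

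In the acute phase list, Orm3, an acute phase protein gene, was higher in 42Y than in 42WKK by 2.60, and Socs3, the feedback inhibitor of STAT3 signalling, by 2.47 (limma adjusted p = 0.033 and 0.0259). Socs3 was at 8.42 and 7.14 in 42Y and at 5.02 to 6.22 on the other 10 arrays. Serpina3n, an acute phase protease inhibitor, was higher by 0.97, and Stat3 by 0.88 (limma adjusted p = 0.0331 and 0.04). The Socs3 call was lost without 42WKKA, 42WKKB or 42Y-1, that of Serpina3n without any 1 of 6 arrays, and those of Orm3 and Stat3 without any 1 of 8. Of the 8 neutrophil markers, 1 was called higher in 42Y than in 42WKK, Retnlg (limma adjusted p = 0.00441). The list was mixed in this comparison, with 5 markers above 0 and 3 below. The neutrophil list median was 4.36 and 4.18 in 42Y against at most 4.05 in 42WKK. It was also 4.50 on 6Y-2 and 4.28 on 16Y-1, and its part in these values was not tested. Orm3 was also higher in 16Y than in 6Y by 3.02 (limma adjusted p = 0.0307) and on the Y arrays than on the others by 1.78 (limma adjusted p = 0.0482), calls lost without any 1 of 5 and of 11 arrays. Orm3 has close relatives among the orosomucoid genes, whose RNA its probes may share.

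Hmox1, the heme oxygenase that frees iron from heme, was high in both groups titled 42. It was at 8.76 and 8.59 in 42Y, at 8.56 and 8.28 in 42WKK, and at 6.56 to 7.49 on the other 8 arrays. It was higher in 42WKK than in 6K by 1.60 (SE 0.20, limma adjusted p = 0.0169), a call lost without 6K-2, 42WKKA or 42WKKB, and higher in 42Y than in 16Y by 1.31 (limma adjusted p = 0.0442), a call lost in 10 of 12 such fits. Slc30a5 was also higher in 42Y than in 16Y by 1.09 (limma adjusted p = 0.042). In 42WKK over 6K, Ncoa4, the receptor that directs ferritin to breakdown, was higher by 0.58 and Pcbp2, an iron chaperone, by 0.48 (limma adjusted p = 0.0438 and 0.0488). These last 3 calls were lost in 10, 10 and 12 of 12 fits with an array left out. In 6Y against 6K, none of the 112 genes was called by limma (8 at an unadjusted p under 0.05, where 5.28% of all clusters were).

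**Figure D4:**
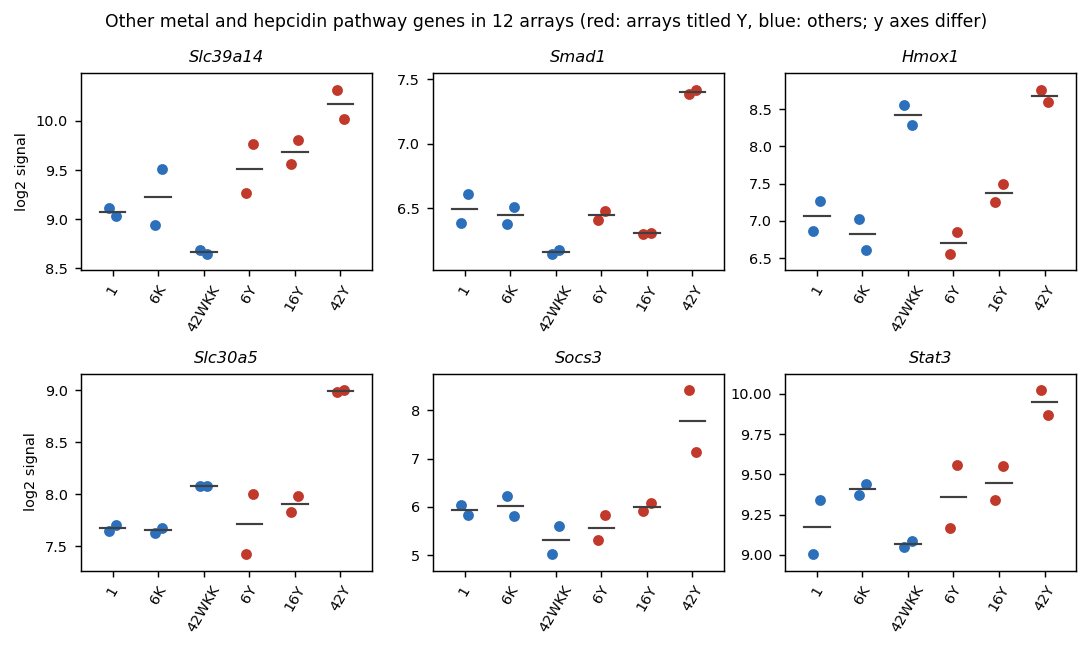
Log2 signal (y axis, a separate scale in each panel) of 6 further pathway genes in the title groups (x axis), with a dot for each of the 2 arrays of a group and a line at their mean. Smad1 is at 7.38 and 7.42 in 42Y and at 6.61 or below elsewhere, Hmox1 is high in both 42WKK and 42Y, and Slc39a14 is lowest in 42WKK and highest in 42Y.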

How the data were processed

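RNA of 12 samples was measured on Affymetrix arrays, and the deposited values are log2 signals per transcript cluster, made by the authors with RMA-sketch in Expression Console. The methods name a mouse exon array, and the clusters carried gene names from the platform table (21789 of 35556 had 1 symbol, 1621 several and 12146 none). The genome build used by the authors was not given in the sources used here. The deposited log2 values were used without further scaling. With R 4.3.3 and limma 3.58.1, linear models with moderated variances and no variance trend were fitted to 6 title groups over all 35556 clusters, two-sided, with Benjamini-Hochberg adjustment, and the fit was tested on simulated data. The comparison of the Y with the other arrays was also run as an exact permutation test, and correlations used 100000 permutations with adjustment over 105 relations. List medians, and the clock value built from them, were taken over log2 signals not centred by gene. The genes at the middle of a list can therefore differ between arrays. Array number limits the precision, and low signals compress differences.

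The 10 genes and the pathway and marker lists were chosen with earlier results of these data known. Every one of the 10 was described in all arrays. List genes were named where called, up to 4 for each list and comparison by size, and the 5 genes most like Hamp, Id1 and Mt1 were named by Pearson r. Marker, clock and agouti genes were named where they check a label or move with a result. Alternatives were quantile normalization, median centring, a mean log2 signal of at least 6, a variance trend and clusters with 1 symbol. Others were the compared arrays alone, leaving out 6K or each array, a block for title numbers, and a one-way analysis of variance of 42Y against 42WKK. The comparison of Y with other arrays in groups 6 and 42 alone was added after seeing the data. Replicate numbers were checked as pairs, and the deviations of same-numbered arrays correlated at -0.04 to 0.05 between groups. Promoter windows came from RefSeq (GRCm38.p6), and those of the hepcidin genes are not reported here.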

Additional observations from a re-analysis of the deposited data

Results flagged for a closer look

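Among the 6 Y arrays, 6Y-1 stood far below the other 5 for both metallothioneins. Mt1 was at 12.03 on 6Y-1, a gap of 0.718 of the whole range of the Y arrays, and Mt2 was at 11.64, a gap of 0.657, both above Dixon's 95% critical value for 6 samples. Of 20 sets of 6 arrays examined (the 10 genes in the Y arrays and in the others), these 2 passed. Chance alone gives about 1 in 20, and the pair is not independent because Mt1 and Mt2 move together. That rate assumes arrays of a single population, whereas each set pools title groups. The Mt1 means of 6Y, 16Y and 42Y were 12.49, 13.22 and 13.27. The Mt1 arrays were 0.92 apart within 6Y and 2.10 apart within 6K. On the same array Hamp was the lowest of the 12 at 10.91. The cause was not tested.

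The 42Y over 42WKK difference of Smad1 exceeded the 6Y over 6K difference by 1.24 on the log2 scale (limma adjusted p = 0.0291), with both 42Y arrays above all 10 others.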

How the results depend on the processing

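With 2 arrays in each group, the precision was set by the spread pooled over groups. Of the 136 alternatives for the counts of called members, 133 gave 0. The 136 include the 84 fits of the 7 comparisons that left out 1 array. Among the adjusted tests of all 35556 clusters, the share called was at most 3.79% (16Y against 6Y, variance trend). It was 0 for 42Y against 42WKK with only the compared arrays, and 0 in the exact permutation test of Y against other arrays. With such shares a count of 0 members was likely, so it says little about the members. The exceptions to the counts of 0 were as follows. With only clusters of a mean log2 signal of at least 6, which dropped Id1 and Smad7, the count became 1 for 42Y against 42WKK (Slc40a1, limma adjusted p = 0.0453) and 1 for 42WKK against 6K (Tfr2, limma adjusted p = 0.0414). Fewer clusters were tested there, 11788 with 8 members among them. For 42Y against 42WKK, 1721 clusters (14.6%) were called, against 659 in the full set. For 42WKK against 6K, 1456 (12.4%) were called, against 360. A count of 1 of 8 members is near these shares. A one-way analysis of variance of the 42Y and 42WKK arrays alone counted 3 members without adjustment (Tfr2, Mt1 and Mt2). It counted 10.7% of all clusters, and 0 members after Benjamini-Hochberg adjustment. The number of clusters called for 42Y against 42WKK ranged from 52 (without 42WKKA) to 500 with 1 array left out.

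Differences near 0 changed sign. For the Y arrays over the others, Hamp was -0.0133 and Smad7 was 0.10 without group 6K, and Slc40a1 was -0.16 with only the groups titled 6 and 42. Leaving out 1 array gave -0.18 to 0.27 for Hamp in that comparison, and for 42Y over 42WKK -0.16 to 0.0103 for Tfrc and -0.0818 to 0.24 for Smad7. The causes were not tested. Of 932 alternatives over 47 single gene results, 718 kept direction and side of the threshold, 199 lost the call, 5 gained one and 10 changed direction. Only results called in the main fit could lose a call, and many of the 718 belong to results never called. The 718 therefore do not measure how stable the calls were. The replicate block on the title numbers, which do not pair the arrays, gave 0 members called in 6Y against 6K, 16Y against 6Y and 42Y against 16Y, and moved the count of all clusters to 0, 16 and 1 from 1, 634 and 142.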
